A study of Mus musculus with 8 samples.

Results

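The genes described here encode the subunits of the ionotropic neurotransmitter receptors. Septal tissue, which the study used to profile the lateral septum, came from naive mice and from other mice after acute restraint stress (RS). Members were taken by gene symbol alone: AMPA (Gria), kainate (Grik), NMDA (Grin) and delta (Grid) glutamate receptor subunits, GABA-A receptor subunits (Gabra to Gabrr), glycine receptor subunits (Glra and Glrb), nicotinic acetylcholine receptor subunits (Chrn) and 5-HT3 receptor subunits (Htr3). Of 60 such symbols, 42 reached 1 TPM (transcripts per 1000000, which corrects for transcript length) in at least 2 of the 8 libraries and were tested among 14365 genes. The other 18 stayed under that minimum. Counts below are over the 42, of which 39 are described by name.

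PhosphoTrap captures ribosomes that carry the phosphorylated form of ribosomal protein S6 (pS6), a modification that follows neuronal activation, and sequences the RNA bound to them. Septal tissue of wild-type C57Bl/6J mice was pooled from 4 to 6 animals per library, and RNA was taken from each pool before the immunoprecipitation (input) and after it (IP). Naive mice stayed in the home cage, and RS mice spent 1 h in a flexible restraint cone, with 2 pools per condition, which gave 2 input and 2 IP libraries from naive mice and as many from RS mice. All mice were wild type, so the groups share their genotype and differ in restraint and in the fraction sequenced. In each list of values below, pool 1 comes before pool 2. The study used males and females of 8 to 20 weeks of age, and the sources used here do not give the sex or age of each pool.

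Ionotropic receptors are ligand-gated channels assembled from several subunits, and the subunit mixture sets the conductance, the kinetics and the drug sensitivity of the channel. AMPA receptors carry most fast excitation, and the Gria2 subunit makes them nearly impermeable to calcium. NMDA receptors need the Grin1 subunit, and Grik4 and Grik5 join Grik1, Grik2 or Grik3 in high-affinity kainate receptors. GABA-A receptors commonly combine alpha and beta subunits with a gamma subunit at synapses or a delta subunit outside them. Neurons of the lateral septum are mostly GABAergic and receive dense glutamatergic input from the hippocampus.

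Every library held values for 24972 symbols that summed to 1000000, so values were used as TPM and the sequencing depth behind them is unknown. The sum alone does not show that the values were corrected for transcript length. The 4 GABAergic markers summed to between 293 and 474 TPM in every library, and the 3 glutamatergic markers, nearly all of it Slc17a7, summed to 125 and 126 TPM in naive input, 167 and 174 in RS input and between 86.0 and 95.3 in IP. Septal markers, most of it Sst, summed to between 473 and 597 TPM in input and between 886 and 996 in IP. Striatal markers, led by Ppp1r1b, summed to between 1913 and 1971 TPM in naive input and between 2530 and 2676 in RS input. Oligodendrocyte markers were lower in IP, at 1832 to 1973 TPM, than in input, at 5754 to 5828 in naive and 6764 to 7250 in RS mice. Astrocyte markers were higher after RS, at 475 to 511 TPM against 355 to 363 in input and at 523 to 533 against 383 to 411 in IP. Microglial markers moved from 75.2 and 75.3 TPM to 96.5 and 101 in input and from 55.8 and 56.4 to between 44.6 and 49.1 in IP. Endothelial markers were lower after RS, at most 3.87 TPM against at least 6.87 in input and at most 2.68 against at least 5.10 in IP. Choroid plexus markers were higher after RS, at 276 and 331 TPM against 15.3 and 16.4 in input, and at 2062 and 2074 against 34.7 and 36.8 in IP. The part of these cell types in the results below was not tested. Gene symbols that a spreadsheet had turned into dates carried different years in the naive and RS files, so the condition and the date on which the files were made cannot be told apart. In bulk tissue, fewer cells of a type and less RNA per cell cannot be told apart either. Changes are given as the log2 change of TPM + 1 with its standard error, and p-values are limma's, adjusted over all 14365 genes and called under 0.05. They measure the spread between 2 pools per group, and an exact test on 2 against 2 libraries could not go below 1 in 3.

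The AMPA receptor subunits Gria2 and Gria1 were the most abundant of the glutamate receptor subunits. Gria2 stood at 134 and 143 TPM in naive input, 199 and 188 in RS input, 115 and 116 in naive IP and 100.4 and 102 in RS IP. Gria1, a subunit of calcium-permeable AMPA receptors when Gria2 is missing from them, stood at 144 and 143 TPM in naive input, 157 and 154 in RS input, 83.7 and 85.4 in naive IP and 81.8 and 80.2 in RS IP. In both inputs and both IPs these 2 subunits made up most of the family, and Gria4 and Gria3 followed at mean levels of 23.6 and 19.8 TPM. Gria2 and Gria1 ranked 1511 and 1752 among the genes tested, ahead of every other subunit. In the plot of all levels by library, the 39 subunits spanned more than 2 orders of magnitude and the 2 libraries of each group lay close together, apart from some low subunits such as Glra3 and Chrna9.

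**Figure D1:**
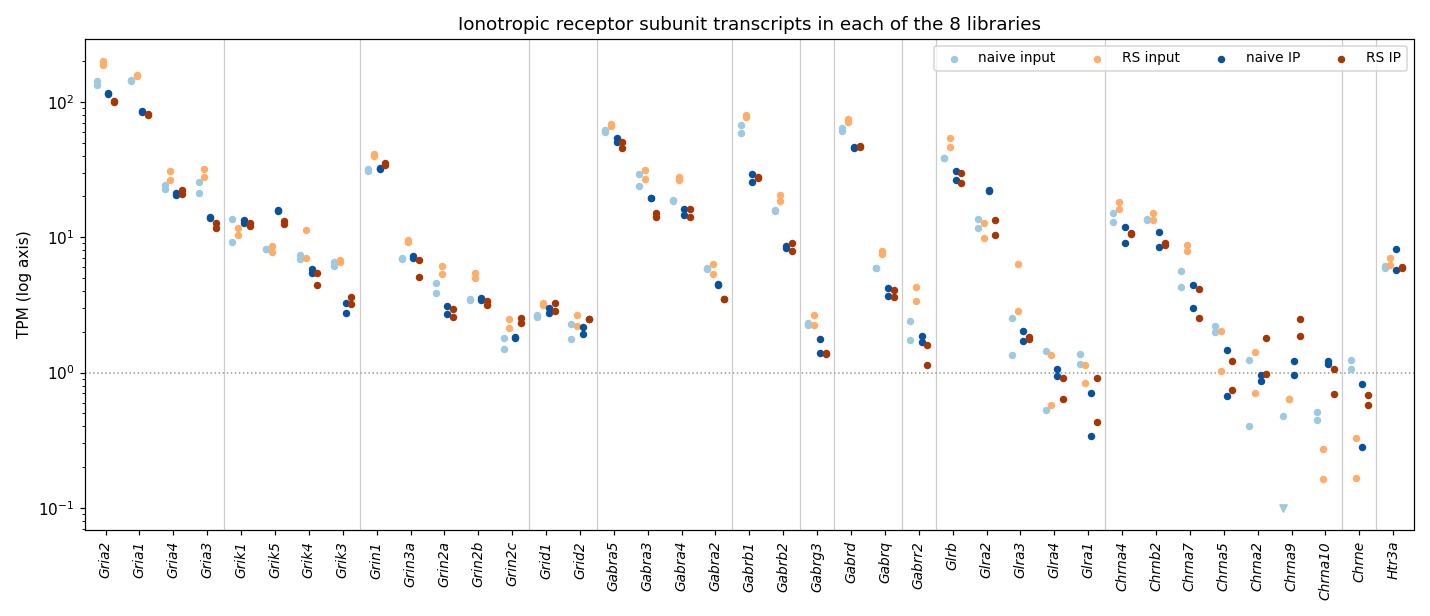
TPM of 39 ionotropic receptor subunits (log axis) in each library, with 2 points per group and vertical lines between families. Gria2 (mean 137 TPM) and Gria1 (116 TPM) were the most abundant; the dotted line marks the minimum of 1 TPM, and the triangle is the library in which Chrna9 was listed at 0.

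Among GABA-A receptor subunits, Gabrd, the delta subunit of extrasynaptic receptors, stood at 64.5 and 61.2 TPM in naive input, 74.3 and 71.4 in RS input, 45.7 and 46.3 in naive IP and 46.1 and 46.8 in RS IP. Gabra5, an alpha subunit of largely extrasynaptic receptors, stood at 61.8 and 59.3 TPM in naive input, 67.9 and 66.3 in RS input, 50.7 and 53.9 in naive IP and 50.3 and 45.2 in RS IP. Their mean levels over the 8 libraries, 57.0 and 56.9 TPM, differed by less than the spread between pools. Gabrb1, a beta subunit, stood at 59.1 and 67.7 TPM in naive input, 80.1 and 77.6 in RS input, 25.6 and 29.2 in naive IP and 27.1 and 28 in RS IP. The alpha subunits Gabra3 and Gabra4 had means of 22.4 and 19.1 TPM, and Gabra2 had a mean of 4.93 TPM. The cerebellar subunit Gabra6 reached at most 0.00942 TPM. Gabrp and Gabrr3 were listed at 0 in all libraries. Gabrr2, a rho subunit, stood at 1.74 and 2.4 TPM in naive input, 3.4 and 4.3 in RS input, 1.88 and 1.69 in naive IP and 1.13 and 1.59 in RS IP.

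Grin1 was the leading NMDA receptor subunit, at 30.9 and 32 TPM in naive input, 40.8 and 40 in RS input, 31.7 and 32.6 in naive IP and 34 and 35.4 in RS IP. The glutamate-binding subunits Grin2a and Grin2b were lower, with means of 3.90 and 3.85 TPM, and Grin3a, a glycine-binding subunit, had a mean of 7.38 TPM. Grin2d stayed between 0.451 and 0.682 TPM and did not pass. Of the delta receptors, which bind cerebellins, Grid1 stood at 2.57 and 2.67 TPM in naive input, 3.13 and 3.24 in RS input, 3.01 and 2.73 in naive IP and 3.28 and 2.85 in RS IP. Of the kainate receptor subunits, Grik1 stood at 9.2 and 13.6 TPM in naive input, 10.3 and 11.7 in RS input, 12.7 and 13.3 in naive IP and 12 and 12.8 in RS IP, below Grik5 in every IP library and above it in every input library. Grik2 was listed between 0.162 and 0.268 TPM. Glrb, the beta subunit that anchors glycine receptors to gephyrin, stood at 38.1 and 38.1 TPM in naive input, 54 and 46.5 in RS input, 26.6 and 30.6 in naive IP and 29.6 and 25.2 in RS IP. Among inhibitory channel subunits of the glycine family, Glra2, the form typical of the immature brain, was the most abundant alpha subunit with a mean of 14.5 TPM, against 2.55 for Glra3 and less than 1 for Glra1 and Glra4.

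Chrna4 and Chrnb2, which together form the most common nicotinic receptor of the brain, were the leading nicotinic subunits. Chrna4 stood at 15.2 and 12.9 TPM in naive input, 18.1 and 16 in RS input, 9.05 and 11.9 in naive IP and 10.6 and 10.7 in RS IP. Chrnb2 had a mean of 11.6 TPM, and Chrna7, which forms homomeric receptors, of 5.09 TPM. Exons of Chrnb2 overlap those of Adar on the opposite strand over 16.3% of their bases, and those of Grin1 overlap Grin1os over 13.5%, and the SMARTer kit is not stated to keep strand, so reads of these partners cannot be separated. Of the muscle subunits only Chrne passed, and it reached 1 TPM in the naive input libraries alone. Glra1 reached it only in input libraries. Chrna9 and Chrna10, known from hair cells of the inner ear, reached 1 TPM only in IP libraries. For these 4 genes the filter itself required the group in which they were high, so their calls below are given for completeness only. Htr3a, the only 5-HT3 subunit that passed, stood at 6.14 and 5.91 TPM in naive input, 6.19 and 6.99 in RS input, 5.7 and 8.11 in naive IP and 6.04 and 5.96 in RS IP.

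The IP was compared with the input of the same naive pools to ask which subunit transcripts were over- or under-represented on pS6 ribosomes in unstressed mice. Of the 42 subunits, 4 were higher in IP and 19 were lower. Over all genes tested, 17.4% were called higher and 49.2% lower, so the lower share of the subunits (45.2%) was close to the background. The median change was -0.28 for the subunits and -0.32 for all genes. Since the median gene itself moved by this amount, changes are set below against that median and against median-of-ratios scaling, which brings it near 0, and against a correction for transcript length and GC content. Under the scaling 10 subunits were higher and 6 lower (23.8% and 14.3%), against 30.9% and 28.7% of all genes, and under the correction 13 were higher and 5 lower (31.0% and 11.9%), against 25.2% and 30.7%. On both of these scales the lower share of the subunits was below the background. The subunits called in the same direction under all 3 scales included Gria1, Gabrb1 and Gabrb2 among those lower, and were Glra2, Grik5, Chrna9 and Chrna10 among those higher. Of these, Chrna9 and Chrna10 passed the filter through IP libraries alone.

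The beta subunits Gabrb1 and Gabrb2 of the GABA-A receptor were among the subunits with the lowest naive IP changes. Gabrb1, whose levels are given above, was lower in both pools, with a log2 change of -1.18 ± 0.09 (adjusted p = 2.13e-05), which was -0.81 after scaling and -0.48 after the length and GC correction. Gabrb2 stood at 15.6 and 15.8 TPM in naive input, 20.6 and 18.4 in RS input, 8.38 and 8.58 in naive IP and 9.05 and 7.96 in RS IP. All 4 IP libraries lay below all 4 input libraries, and the naive change was -0.82 ± 0.10 (adjusted p = 0.000193; -0.47 after scaling). The alpha subunits Gabra2, Gabra3, Gabra4 and Gabra5 were also called lower, but by only 0.21 to 0.42 on the log2 scale, close to the median of all genes, and after scaling none of the 4 was called and Gabra5 and Gabra4 turned to slightly positive values. Each of these 4 calls was also lost without at least 1 naive library, for Gabra2 without any of them, for Gabra3 without naive input 1, and for Gabra4 and Gabra5 without either input or without naive IP 1, with adjusted p, in that order, of 0.0963 to 0.114, 0.079, 0.0846 to 0.167 and 0.0702 to 0.164. With the pool as a block, Gabra2 and Gabra5 were not called either (adjusted p = 0.0612 and 0.0516). Gabrd fell by 0.44 ± 0.06 (adjusted p = 0.00035), and by 0.07 after scaling, where it was not called (adjusted p = 0.346). Gabrg3, a gamma subunit, was not called.

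Most GABA-A subunit genes lie in clusters. On chromosome 5 (GRCm38, GENCODE annotation), Gabra4 (71569749 to 71658308, minus strand) and Gabrb1 (71658113 to 72149037, plus strand) are arranged head to head, with exons that overlap by 46 bases on opposite strands. The naive IP change was -0.27 for Gabra4 and -1.18 for Gabrb1. The cluster on chromosome X holds Gabra3 and Gabrq, the theta subunit, and there the changes were -0.42 and -0.49. These pairs are a description with no test. The windows from 250 bases before to 50 bases after the start are shown for the chromosome 5 pair, because 2 transcripts that start close together there had different IP changes. They come from RefSeq on GRCm38.p6, chr5:71658259-71658558 on the minus strand for Gabra4 and chr5:71657671-71657970 on the plus strand for Gabrb1, and capitals mark matches of GCGNGGGCG, the motif of Egr factors, on either strand.
Gabra4: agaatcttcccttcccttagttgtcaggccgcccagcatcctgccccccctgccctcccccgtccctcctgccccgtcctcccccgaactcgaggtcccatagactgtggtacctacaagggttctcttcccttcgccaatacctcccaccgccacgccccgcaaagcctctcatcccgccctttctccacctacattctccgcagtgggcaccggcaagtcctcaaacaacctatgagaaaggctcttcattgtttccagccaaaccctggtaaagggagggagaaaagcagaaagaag
Gabrb1: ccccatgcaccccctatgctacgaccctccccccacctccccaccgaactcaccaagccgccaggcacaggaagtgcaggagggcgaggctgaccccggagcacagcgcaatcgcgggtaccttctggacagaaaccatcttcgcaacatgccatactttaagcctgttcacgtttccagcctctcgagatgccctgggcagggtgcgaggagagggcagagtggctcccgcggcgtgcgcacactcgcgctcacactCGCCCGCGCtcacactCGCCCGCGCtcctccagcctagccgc
The Gabrb1 window shown holds 2 matches, a second window listed for Gabrb1 (chr5:71699682-71699981) holds none, and the Gabra4 window holds none. Of 32 windows listed for 27 of the 42 subunits, 6 held this motif (18.8%), namely in Grin1, Gabrb1, Chrna7, Glra3, Gria4 and Gabrb2, against 5.55% of all 32851 windows in the table. The cyclic AMP response element TGACGTCA was in none of the 32 windows and in 1.79% of all windows, and the AP-1 motif TGANTCA was in none and in 7.81%. A match is a description of these letters and not of a bound site.

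The AMPA subunits did not move as a group in naive IP. Gria1 was lower in both pools, with a log2 change of -0.76 ± 0.05 (adjusted p = 1.08e-05), -0.38 after scaling. Gria3 stood at 21.1 and 25.6 TPM in naive input, 31.7 and 27.7 in RS input, 13.9 and 14 in naive IP and 12.7 and 11.6 in RS IP. Its naive change was -0.70 ± 0.11 (adjusted p = 0.000878), -0.34 after scaling. Gria2 was called lower at -0.26 ± 0.06 (adjusted p = 0.00361), but relative to the median gene it was slightly higher: 0.12 after scaling (adjusted p = 0.0821) and 0.33 after the length and GC correction (adjusted p = 0.0018). Gria4 was not called (-0.17 ± 0.10) but was called higher after the correction (0.37). None of the NMDA subunits other than Grin2a was called, and Grin1 (0.03 ± 0.07), Grin2b (0.00 ± 0.11) and Grin3a (0.04 ± 0.13) were not called on the TPM scale, and after scaling all 3 were called higher (0.40, 0.30 and 0.37). Grin2a was -0.42 ± 0.14 (adjusted p = 0.0272), and this call was lost without naive input 1 or naive IP 2 (adjusted p = 0.129 to 0.154).

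Grik5 and Glra2 were the abundant subunits that rose on pS6 ribosomes. Grik5, a high-affinity kainate subunit, stood at 8.22 and 8.17 TPM in naive input, 7.75 and 8.55 in RS input, 16 and 15.5 in naive IP and 12.6 and 13.2 in RS IP. Every IP library lay above every input library, and the naive change was 0.87 ± 0.09 (adjusted p = 9.5e-05), 1.22 after scaling and 1.19 after the length and GC correction. Grik3, another kainate subunit, moved the other way. It stood at 6.08 and 6.6 TPM in naive input, 6.73 and 6.52 in RS input, 3.27 and 2.76 in naive IP and 3.22 and 3.62 in RS IP, with a naive change of -0.87 ± 0.12 (adjusted p = 0.000373), -0.56 after scaling, and was not called after the length and GC correction (-0.29, adjusted p = 0.0618). Glra2 stood at 13.7 and 11.6 TPM in naive input, 12.7 and 9.78 in RS input, 22.3 and 22.1 in naive IP and 13.4 and 10.4 in RS IP. Both naive IP libraries lay above the other 6, and the naive change was 0.76 ± 0.16 (adjusted p = 0.00291), 1.13 after scaling. Chrna9 stood at 0.477 and 0 TPM in naive input, 0.637 and 0.632 in RS input, 1.22 and 0.958 in naive IP and 1.85 and 2.48 in RS IP, and 0 here means only that it was listed at 0. Its naive change of 0.78 ± 0.21 (adjusted p = 0.0116) was not called without naive input 2 or naive IP 1 (adjusted p = 0.0668 to 0.0673). Chrna10 stood at 0.513 and 0.448 TPM in naive input, 0.273 and 0.163 in RS input, 1.21 and 1.16 in naive IP and 1.07 and 0.693 in RS IP. Its change of 0.56 ± 0.16 (adjusted p = 0.0142) was not called without naive input 2 or without either naive IP library (adjusted p = 0.0523 to 0.0649), and 39.0% of its exonic bases overlap Art1 on the opposite strand. Chrna9 and Chrna10 passed the filter through IP libraries alone, so their higher calls are given for completeness only. Chrna4 and Chrnb2 were lower by 0.40 and 0.45 on the log2 scale (adjusted p = 0.0346 and 0.0125), which scaling reduced to -0.04 and -0.10. Chrna4 was not called with the pool as a block (adjusted p = 0.0644), nor without naive input 1 or any of 3 IP libraries (naive IP 1 and both RS IP; adjusted p = 0.0512 to 0.214), and Chrnb2 was not called without naive input 1 or naive IP 1 (adjusted p = 0.0537 to 0.0797). Of the remaining lower calls, Glrb (adjusted p = 0.0119) was lost without naive IP 1 (adjusted p = 0.0792), Glra1 (adjusted p = 0.0341) without either naive input or naive IP 1 (adjusted p = 0.0636 to 0.19), and Gabrq (-0.49 ± 0.11) held without any one library but was not called after scaling (-0.17). Glra1 passed the filter through input libraries alone, so its lower call is given for completeness only. In the plot of IP against input changes, most subunits lay near the median of all genes in naive mice, with Gabrb1, Gabrb2, Gria1, Gria3 and Grik3 to its left.

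**Figure D2:**
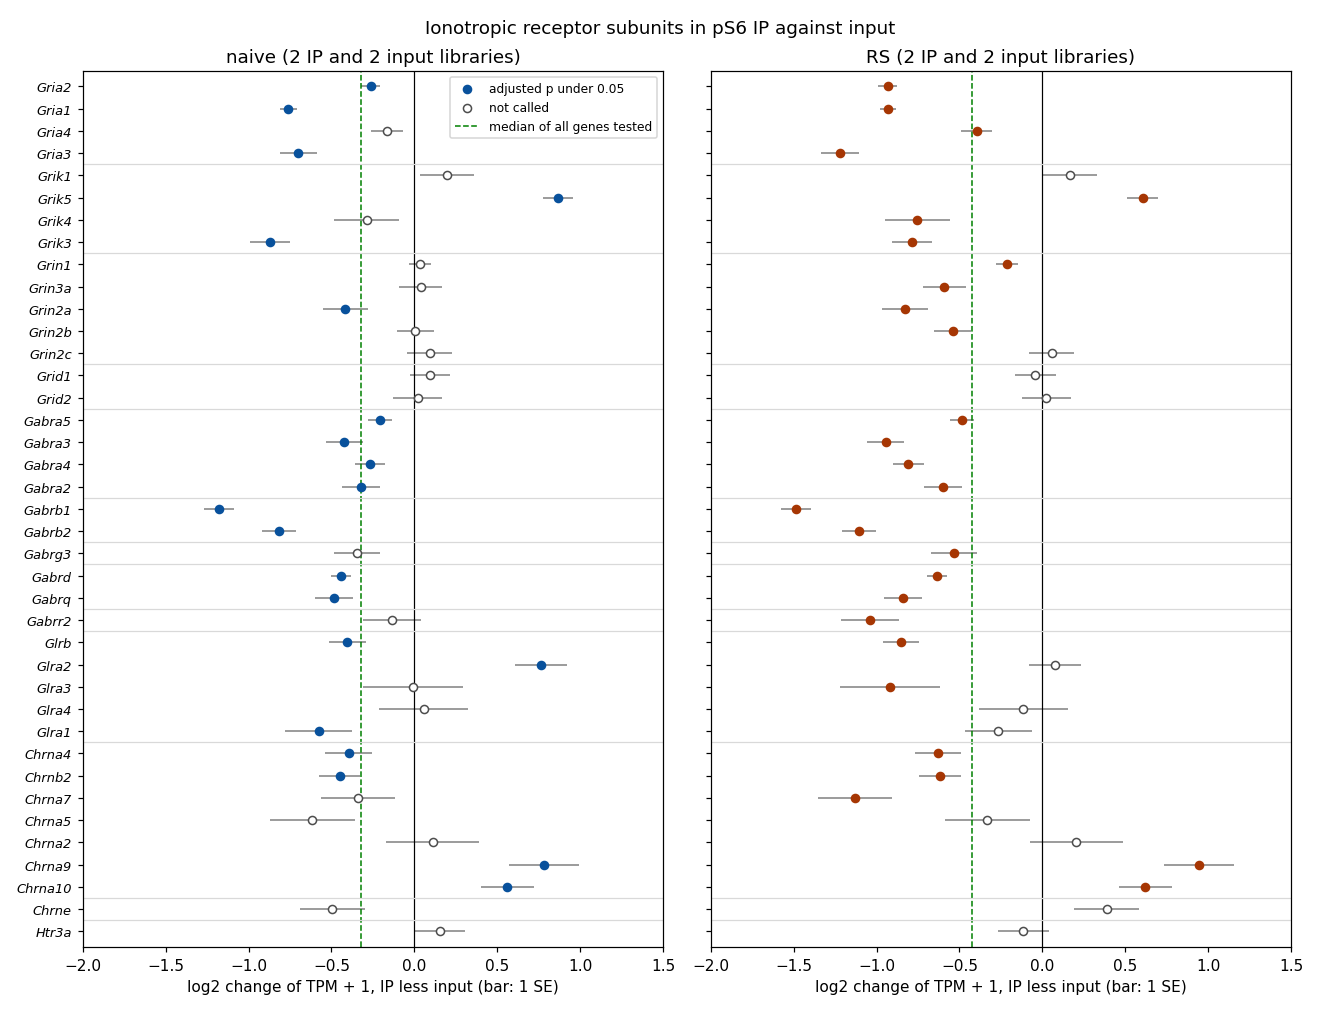
Log2 change of TPM + 1 in IP against input for 39 subunits, naive at left and RS at right, with 1 SE; filled points are past an adjusted p of 0.05 and the green dashed line is the median of all genes tested. The beta subunits Gabrb1 and Gabrb2 lie far left of that line in both panels and Grik5, Chrna9 and Chrna10 right of 0. Chrna9 and Chrna10 passed the filter through IP libraries alone. After median-of-ratios scaling, which removes the offset of the dashed line, Gria2, Gabra4 and Gabra5 were among those that turned positive in naive mice, and Gria4, Gabra5 and Grin1 in RS.

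The same comparison in RS mice gave 3 subunits higher in IP and 28 lower. Over all genes, 17.8% were called higher and 54.9% lower, so the lower share of the subunits (66.7%) was above the background and the higher share (7.14%) below it on the TPM scale. The median change was -0.59 for the subunits and -0.42 for all genes. Under median-of-ratios scaling 9 were higher and 14 lower (21.4% and 33.3%), against 33.4% and 31.2% of all genes, and under the length and GC correction 13 were higher and 11 lower (31.0% and 26.2%), against 26.8% and 32.5%. The lower share was therefore close to the background after scaling and below it after the correction. The subunits called lower under all 3 scales included Gria1, Gria3, Gabra3, Gabra4, Gabrb1, Gabrb2, Gabrr2, Glrb and Chrna7. Those called higher under all 3 were Grik5, Chrna9 and Chrna10, but Chrna9 and Chrna10 passed the filter through IP libraries alone.

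In RS mice the beta subunit Gabrb1 was lower in IP at -1.48 ± 0.09 (adjusted p = 3.91e-06) and Gabrb2 at -1.11 ± 0.10 (adjusted p = 2.55e-05). After scaling these were -0.98 and -0.63. Gabra2, Gabra3, Gabra4 and Gabra5 were called lower, from -0.48 for Gabra5 to -0.95 for Gabra3, and after scaling Gabra3 (-0.46) and Gabra4 (-0.32) stayed past the threshold, while Gabra2 did not and Gabra5 moved to 0.02. Gabrr2 was at -1.04 ± 0.17 (adjusted p = 0.000814), and both RS IP values were below every other value. Gabrd was at -0.64 ± 0.06 (adjusted p = 3.33e-05), against -0.13 after scaling, where it was not called (adjusted p = 0.0719). Gabrg3 was called lower at -0.53, but not without RS input 1 (adjusted p = 0.0501) nor after scaling (-0.20), and the length and GC correction turned it to a higher call (0.36, adjusted p = 0.0342).

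All 4 AMPA subunits were called lower in RS IP. Gria3 had -1.22 ± 0.11 (adjusted p = 3e-05), Gria1 -0.93 ± 0.05 (adjusted p = 2.33e-06) and Gria2 -0.93 ± 0.06 (adjusted p = 3.82e-06). After scaling these were -0.73, -0.42 and -0.42, and after the length and GC correction Gria2 was at -0.05 and not called (adjusted p = 0.451). Gria4 was at -0.40 on the TPM scale and turned positive after scaling (0.09) and after the correction (0.36). Of the NMDA subunits, Grin2a (-0.83), Grin3a (-0.59), Grin2b (-0.54) and Grin1 (-0.21) were called lower, but Grin1 was called higher after scaling (0.28) and after the length and GC correction (0.42), and Grin2b after the length and GC correction (0.57). The TPM call of Grin1 was lost without RS input 1 or RS IP 1 (adjusted p = 0.0704 to 0.0858). Grin2c, a subunit best known from the cerebellum, and both delta receptors were not called. Chrna7 was lower at -1.13 ± 0.22 (adjusted p = 0.00202), and stood at 4.3 and 5.65 TPM in naive input, 8.68 and 7.96 in RS input, 4.47 and 3.02 in naive IP and 2.52 and 4.15 in RS IP. Its 2 RS input values lay above the other 6.

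Grik5 was higher in RS IP at 0.60 ± 0.09 (adjusted p = 0.000471), 1.06 after scaling. Chrna9 was higher at 0.95 ± 0.21 (adjusted p = 0.00389) and Chrna10 at 0.62 ± 0.16 (adjusted p = 0.00763), the latter not called without RS IP 1 (adjusted p = 0.0594). Chrna9 and Chrna10 passed the filter through IP libraries alone, so these 2 calls are given for completeness only. Glra2 was at 0.08 ± 0.16 (adjusted p = 0.679) on the TPM scale and was called higher after scaling (0.54, adjusted p = 0.0134). Grik3 stayed lower at -0.79 ± 0.12 (adjusted p = 0.000491), and turned to 0.07 after the length and GC correction. Glrb was at -0.85 ± 0.11 (adjusted p = 0.000185). Glra3 was called at -0.92 ± 0.30 (adjusted p = 0.0238), but its RS input pools read 2.86 and 6.31 TPM, and the call was lost without RS input 2 or either RS IP library (adjusted p = 0.0763 to 0.145). Grik4 was called at -0.76 ± 0.20 (adjusted p = 0.00816) and lost that call without RS IP 1 (adjusted p = 0.0554).

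Shares within a family do not depend on the scaling of a library, but they are not corrected for transcript length or GC content. They describe the subunit mixture of the IP beside that of the input. Of the summed kainate TPM, Grik5 made up 26.6% and 23.2% in naive input, 21.4% and 25.3% in RS input, 42.7% and 41.5% in naive IP and 39.1% and 37.6% in RS IP. The 4 IP values did not overlap the 4 input values. Grik3 made up 18.6% to 19.7% of the family in input and 7.38% to 10.3% in IP. Its longest annotated transcript has 8973 bases and that of Grik5 has 3763. After the length and GC correction the IP change of Grik3 was not called in naive mice and turned to 0.07 in RS mice. Grik5 stayed called higher in both. Of the glycine receptor family, Glra2 made up 24% and 22.1% in naive input, 17.7% and 15.2% in RS input, 42.8% and 39.2% in naive IP and 29.1% and 26.7% in RS IP. Its share was highest in naive IP, followed by RS IP, and the 4 groups did not overlap. Of the AMPA family, Gria2 made up 41.4% and 42.8% in naive input, 47.6% and 47.5% in RS input, 49.1% and 49.2% in naive IP and 46.6% and 47.1% in RS IP. Its share was lowest in naive input, and the other 3 groups lay within 3 percentage points of each other. Gria1 held the complementary position, with 42.8% to 44.6% of the family in naive input and 35.9% to 38.8% elsewhere. Gabrd made up 90.4% to 92.8% of delta and theta. Grin1 made up 63.7% to 66.9% of the NMDA family in input and 67.0% to 71.2% in IP. No test was fitted on shares. The plot of family shares shows the kainate and glycine mixtures changing between input and IP, and the AMPA mixture changing less.

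**Figure D3:**
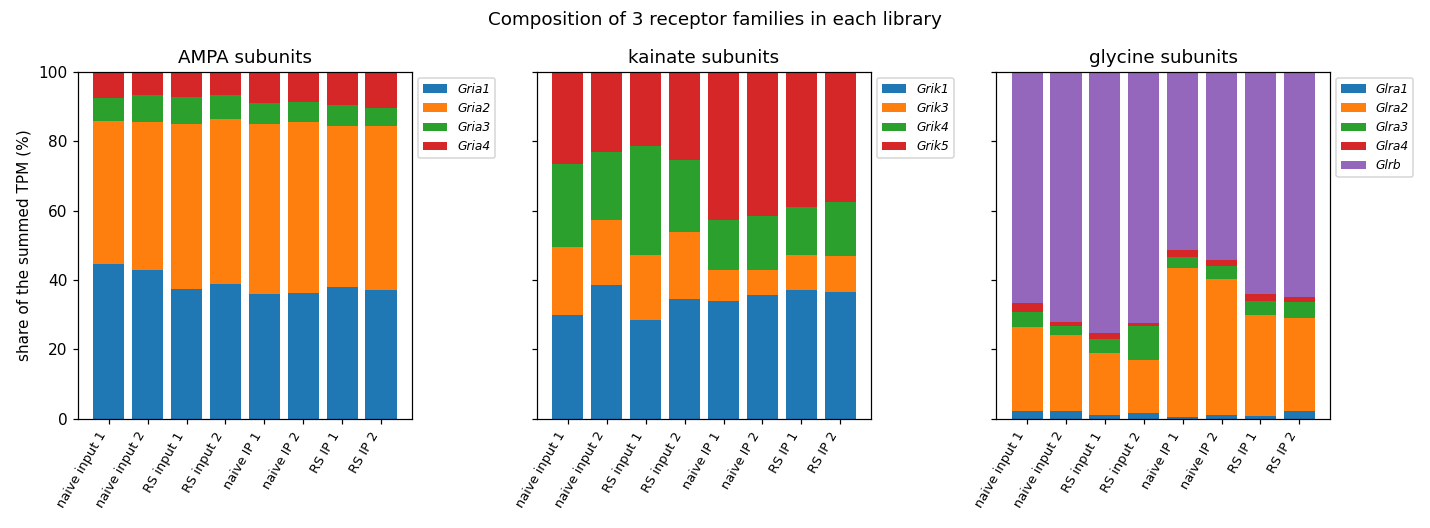
Share of the summed TPM (%) of the AMPA, kainate and glycine receptor families taken by each subunit that passed, in each of the 8 libraries. Grik5 takes 21.4% to 26.6% of the kainate family in input and 37.6% to 42.7% in IP, and Glra2 takes 39.2% and 42.8% of the glycine family in the 2 naive IP libraries.

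AMPA subunits summed to 324 and 335 TPM in naive input, 419 and 396 in RS input, 233 and 236 in naive IP and 216 and 216 in RS IP. NMDA subunits summed to 47.6 and 47.9 TPM in naive input, 64 and 62.1 in RS input, 47.3 and 47.7 in naive IP and 47.7 and 50.5 in RS IP. AMPA sums were lower in every IP library than in any input library, while the NMDA sums of both IPs were close to naive input and lay below RS input. Kainate sums ranged from 30.8 to 37.4 TPM over all libraries, with Grik5 higher in IP and Grik3 lower. All 42 subunits together took 0.0872% and 0.0883% of all TPM in naive input, 0.110% and 0.104% in RS input, 0.0646% and 0.0675% in naive IP and 0.0624% and 0.0607% in RS IP.

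All 8 libraries enter the difference between the RS and the naive IP change, which asks whether restraint altered the representation of a subunit on pS6 ribosomes relative to its input. It was called for 3 subunits, all lower after RS and Gria2 and Gabra4 among them, and for none in the other direction. An unadjusted limma p under 0.05 was found for 15 subunits in the lower direction and 1 in the higher. The share of all genes under that unadjusted threshold was not counted. After scaling these counts were 9 and 1, and after the length and GC correction 7 and 1. The median difference was -0.26 for the subunits and -0.11 for all genes. Over all genes 3.29% were called higher and 3.46% lower, against 7.14% of the subunits lower. Gria2 had the lowest p: its change went from -0.26 in naive to -0.93 in RS mice, a difference of -0.67 ± 0.08 (adjusted p = 0.0134), -0.54 after scaling (adjusted p = 0.0156). It was not called after the length and GC correction (-0.38, adjusted p = 0.0584) or without the mean-variance trend (adjusted p = 0.0776), and leaving out any library other than the RS inputs raised its adjusted p to 0.0506 to 0.0658. Gabra4 stood at 18.5 and 18.9 TPM in naive input, 27.8 and 26.5 in RS input, 14.6 and 16.2 in naive IP and 16 and 14.2 in RS IP, and had a difference of -0.54 ± 0.13 (adjusted p = 0.0499), lost with the pool as a block (adjusted p = 0.087) and without any one library (adjusted p = 0.0662 to 0.151). In both genes the 2 RS input libraries were the highest of the 8. The RS IP libraries lay below the naive IP libraries for Gria2 and overlapped with them for Gabra4. Slc17a7, which made up nearly all of the glutamatergic marker sum, gave 0.44 ± 0.06 in RS against naive input (adjusted p = 0.00248) and a difference of -0.52 ± 0.09 (adjusted p = 0.0218), lost, as for Gria2, without any library but the RS inputs (adjusted p = 0.0559 to 0.0902) and, unlike it, with the pool as a block (adjusted p = 0.0643). The part of glutamatergic cells in these differences was not tested. After scaling Gabra4 was not called (adjusted p = 0.0945). The plot of 6 subunits by library shows Gria2 and Gabra4 beside Gria1, Gabrb1, Grik5 and Glra2. With the pool as a block, 1 of the 3 calls held, that of Gria2 (adjusted p = 0.0494).

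**Figure D4:**
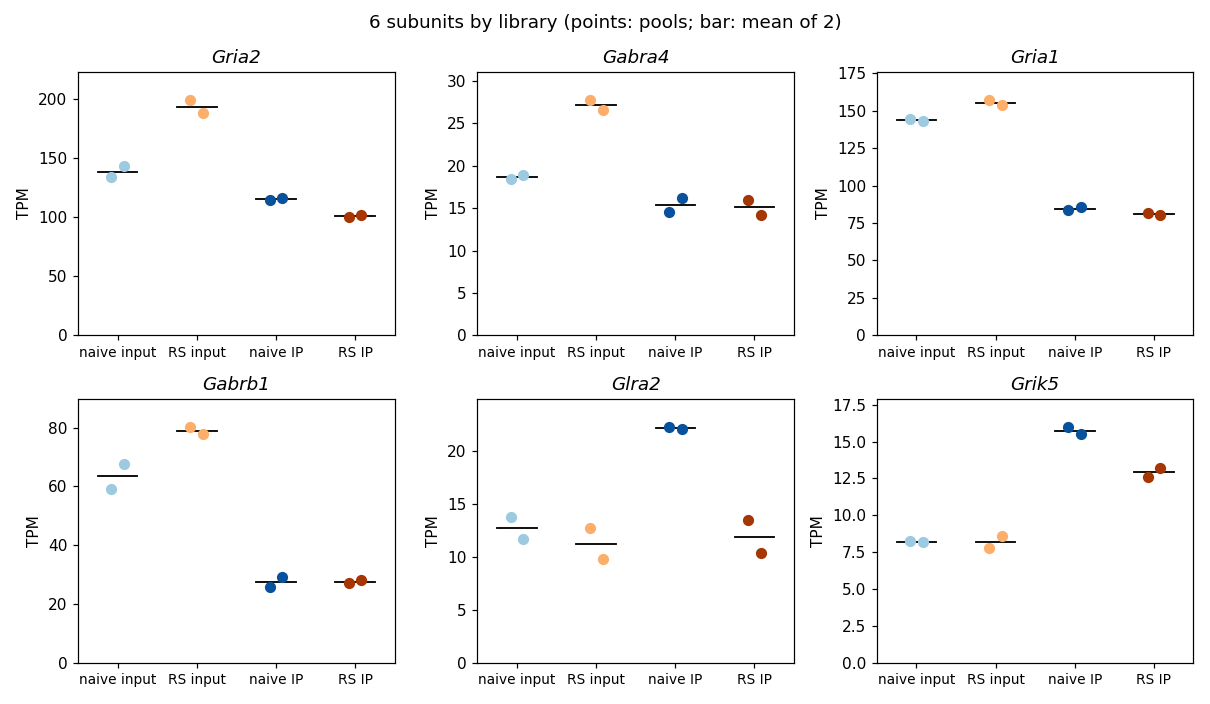
TPM of 6 subunits in each library (points) with the mean of the 2 pools (bars), on axes that start at 0. Gria2 and Gabra4 are highest in RS input, Gria1 and Gabrb1 are lower in IP than in input in both conditions, Grik5 is higher in IP, and Glra2 is at 22.1 and 22.3 TPM in naive IP against 9.78 to 13.7 elsewhere.

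Within the IP, RS was compared with naive to ask which subunit transcripts changed on pS6 ribosomes after restraint. Of the 42 subunits, Glra2 alone was called, and lower. None was called higher. An unadjusted limma p under 0.05 was found for 1 subunit in the higher direction and 5 in the lower. The share of all genes under that unadjusted threshold was not counted here either. Over all genes 1.98% were called higher and 0.327% lower. The levels of Glra2 fell from 22.3 and 22.1 TPM in naive IP to 13.4 and 10.4 in RS IP, a log2 change of -0.85 ± 0.16 (adjusted p = 0.0344), and the 2 groups did not overlap. The change was nearly the same after scaling (-0.88, adjusted p = 0.0278) and after the length and GC correction (-0.84, adjusted p = 0.0226). It was not called without any one of the naive input, naive IP or RS IP libraries (adjusted p = 0.0561 to 0.187), nor when only the 4 IP libraries were fitted, without the filter on low values or without the mean-variance trend. In input, Glra2 changed by -0.17 ± 0.16 with RS (adjusted p = 0.452), and the difference between its 2 IP changes was -0.69 ± 0.22 (adjusted p = 0.1). Glra2 lies on the minus strand of chromosome X (165129017 to 165327393, GRCm38). The window around its start is shown because it is the only subunit called in this comparison (chrX:165327344-165327643, minus strand, RefSeq on GRCm38.p6).
Glra2: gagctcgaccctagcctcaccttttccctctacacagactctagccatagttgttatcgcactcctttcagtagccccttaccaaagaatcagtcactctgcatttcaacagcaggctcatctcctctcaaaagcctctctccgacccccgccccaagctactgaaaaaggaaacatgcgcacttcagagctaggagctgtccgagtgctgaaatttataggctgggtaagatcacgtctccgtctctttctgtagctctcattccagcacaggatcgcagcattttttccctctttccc
None of the 5 motifs searched is in this window. Beside the 3 given above these were the half-site TGACG of the cyclic AMP response element, found in 20.8% of all windows, and the half-site AGAACA of steroid receptor elements, found in 19.0%. Of the 32 subunit windows, 15.6% and 12.5% held them. The TGACG motif is also part of the full element TGACGTCA, and all motifs were searched on both strands.

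None of the remaining subunits was called between RS IP and naive IP, which does not show that they were unchanged. The median change was -0.06 for the 42 subunits and 0.01 for all genes. AMPA subunits ranged from -0.19 (Gria2) to 0.05 (Gria4) and NMDA subunits from -0.25 (Grin3a) to 0.28 (Grin2c), none of them called. Grik5, at -0.27 ± 0.09 (adjusted p = 0.197), was lower in both RS IP libraries than in both naive IP libraries. Gabra3, at -0.39 ± 0.11 (adjusted p = 0.133), was also lower without overlap. Chrna9 had the highest value, 0.59 ± 0.21 (adjusted p = 0.217). Without overlap, 5 of the 42 subunits were higher in both RS IP libraries and 15 were lower, against 25.1% and 21.2% of all genes. Of the 12 marker lists, 5 summed to more in both RS IP libraries than in both naive IP libraries (choroid plexus, astrocyte, oligodendrocyte, GABAergic and septal) and 2 to less (microglial and endothelial), and their part in these values was not tested. Sst made up most of the septal sum. Among the septal markers Nts was called higher (0.84), a call lost without naive IP 2, and Sst was not called (0.12). Glp1r (-0.20), Crhr2 (-0.34), Trpc4 (-0.27) and Zic1 (-0.41) were lower and not called.

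In the input, 9 subunits were higher after RS and 1 was lower. Over all genes 20.3% were called higher and 8.21% lower, so the higher share of the subunits (21.4%) was close to the background. The median change was 0.24 for the subunits and 0.13 for all genes. Those called higher included Gabrr2, Gabra4, Gria2, Grin2b, Glrb, Grin1, Gabrb1 and Gabrd. Gria2 rose by 0.48 ± 0.06 (adjusted p = 0.00168) and Gabra4 by 0.51 ± 0.09 (adjusted p = 0.00659), and these 2 calls held without any one library. Under median-of-ratios scaling 3 subunits were higher and 1 lower, against 7.92% and 12.3% of all genes, with Gria2 (0.33) and Gabra4 (0.37) among the higher. After the length and GC correction Gabra4 and Gabrr2 were called higher (0.33 and 0.64), where 6.4% and 6.55% of all genes were called higher and lower, and Gria2 was not called (0.20, adjusted p = 0.0535). Gabrr2 rose by 0.66 ± 0.17 (adjusted p = 0.0257), lost without naive input 1 or either RS input library (adjusted p = 0.0506 to 0.14). Grin2b stood at 3.44 and 3.48 TPM in naive input, 5.39 and 5.03 in RS input, 3.42 and 3.53 in naive IP and 3.16 and 3.38 in RS IP. It rose by 0.48 ± 0.11 (adjusted p = 0.0169), lost without either naive input or RS input 1 (adjusted p = 0.0715 to 0.0888).

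Glrb rose by 0.39 ± 0.11 in input (adjusted p = 0.0345), lost without either naive input or RS input 1 (adjusted p = 0.118 to 0.186). Grin1 rose by 0.35 ± 0.07 (adjusted p = 0.00755), lost without naive input 1 (adjusted p = 0.0552). Gabrb1 rose by 0.31 ± 0.09 (adjusted p = 0.0351), lost without naive input 1 or any of the 4 RS libraries (adjusted p = 0.0514 to 0.196). Gabrd rose by 0.21 ± 0.06 (adjusted p = 0.0352), lost without any naive library or either RS input library (adjusted p = 0.0532 to 0.177). Chrne was the subunit that was lower, at 1.25 and 1.06 TPM in naive input, 0.166 and 0.33 in RS input, 0.816 and 0.282 in naive IP and 0.681 and 0.578 in RS IP, a change of -0.79 ± 0.20 (adjusted p = 0.0209), lost without either naive input or RS input 1 (adjusted p = 0.0622 to 0.107). It is a low gene that passed through naive input alone. Of the 12 marker lists, 10 also summed to more in both RS input libraries than in both naive input libraries, among them the glutamatergic, striatal, astrocyte, oligodendrocyte, microglial and choroid plexus lists, and the septal and endothelial lists summed to less. Their part in these changes was not tested. Gria1 was not called (0.11 ± 0.05, adjusted p = 0.127), and neither was Gabra5 (0.15 ± 0.07, adjusted p = 0.168).

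The longest annotated transcripts of these genes had a median of 4420.5 bases, against 2968 for the genes tested with a known length. Across the 42 subunits, the IP change correlated with log2 transcript length at r = -0.27 in naive and r = -0.41 in RS mice, and the RS change in input at r = 0.34. Across 14203 genes the same values were -0.40, -0.54 and 0.45. With GC content, the subunits gave r = 0.32 and 0.50 for the naive and RS IP changes, against 0.10 and 0.12 over all genes. These are descriptions across genes that share libraries, and genes are not independent replicates.

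Proteins that traffic, cluster or modulate these receptors were examined as lists. Their median changes in naive and RS IP stood beside -0.32 and -0.42 for all genes. They were -0.31 and -0.66 for auxiliary subunits, -0.46 and -0.55 for glutamate receptor scaffolds and -0.31 and -0.59 for inhibitory synapse proteins. For cerebellins and C1q-like proteins they were 0.35 and 0.33, and for nicotinic chaperones -0.10 and 0.01. The counts of these lists stand beside 17.4% of all genes higher and 49.2% lower in naive IP and 17.8% and 54.9% in RS IP, and after scaling beside 30.9% and 28.7% in naive IP and 33.4% and 31.2% in RS IP. Of 12 AMPA and kainate auxiliary subunits tested, 3 were higher and 7 lower in naive IP (4 and 2 after scaling), and 2 and 8 in RS IP (3 and 5 after scaling). Cnih3, a cornichon that slows the deactivation of AMPA receptors, stood at 45.1 and 46.2 TPM in naive input, 51.3 and 46 in RS input, 90.3 and 92.8 in naive IP and 81.4 and 90.5 in RS IP. Every IP value lay above every input value, with changes of 0.99 ± 0.08 in naive (adjusted p = 2.29e-05) and 0.81 ± 0.08 in RS (adjusted p = 3.42e-05), which scaling raised to 1.37 and 1.31. Cacng3, a transmembrane AMPA receptor regulatory protein, was higher in naive IP (0.73 ± 0.08, adjusted p = 9.99e-05). Frrs1l, needed for AMPA receptor assembly, was lower in IP in both conditions (-0.98 ± 0.09 and -1.57 ± 0.09, adjusted p = 4.17e-05 and 2.82e-06). It rose in RS input by 0.67 ± 0.09 (adjusted p = 0.00214), and its 2 IP changes differed by -0.59 ± 0.12 (adjusted p = 0.0358), a call lost with the pool as a block (adjusted p = 0.07) and without any library but RS input 2 (adjusted p = 0.0806 to 0.124). Neto2, a kainate receptor auxiliary subunit, was lower in RS IP (-1.34 ± 0.12, adjusted p = 2.44e-05) and higher in RS input (0.77 ± 0.12, adjusted p = 0.00398).

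Of 20 glutamate receptor scaffold genes, 3 were higher and 12 lower in naive IP, and 1 and 13 in RS IP (3 and 8, and 4 and 8, after scaling). The membrane-associated scaffolds Dlgap2 (-1.25 ± 0.10, adjusted p = 2.31e-05), Dlg2 (-1.01 ± 0.09, adjusted p = 4.08e-05) and Dlg1 (-1.16 ± 0.11, adjusted p = 5.86e-05) were lower in naive IP and stayed so after scaling. Dlgap1 was the scaffold whose IP change differed between the conditions, by -0.71 ± 0.11 (adjusted p = 0.0195), lost with the pool as a block (adjusted p = 0.061) and without any library but the RS inputs (adjusted p = 0.0609 to 0.0802). It rose by 0.66 ± 0.08 in RS input (adjusted p = 0.00176). Nptx2, a neuronal pentraxin that gathers AMPA receptors and is induced by activity, stood at 3.66 and 5.07 TPM in naive input, 8.45 and 6.9 in RS input, 4.42 and 4.56 in naive IP and 8.2 and 10.3 in RS IP. It was the only scaffold called in RS IP against naive IP, at 0.89 ± 0.17 (adjusted p = 0.0391), and both RS IP values lay above both naive IP values, but the call was lost without any one of the 4 IP libraries (adjusted p = 0.0886 to 0.216). In RS input 8 of the 20 were higher and none lower on the TPM scale (20.3% and 8.21% of all genes), and 7 were higher and 1 lower after scaling (7.92% and 12.3%). Homer1, a scaffold with an activity-induced short form, was among them at 0.60 ± 0.12 (adjusted p = 0.00909), lost without naive input 2 or RS input 1 (adjusted p = 0.0529 to 0.0543).

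At inhibitory synapses, 5 of 11 scaffold and auxiliary genes were higher and 6 lower in naive IP, and 3 and 7 in RS IP (5 and 3, and 4 and 5, after scaling). Gphn, the gephyrin scaffold of GABA-A and glycine receptors, was lower at -0.87 ± 0.08 (adjusted p = 5.32e-05) and -1.18 ± 0.08 (adjusted p = 7e-06). Lhfpl4, which links GABA-A receptors to neuroligin, was lower in RS IP at -1.23 ± 0.10 (adjusted p = 1.18e-05), and its 2 IP changes differed by -0.78 ± 0.14 (adjusted p = 0.0239), lost with the pool as a block (adjusted p = 0.0614) and without any library but RS input 2 (adjusted p = 0.0574 to 0.0874). Insyn1, an inhibitory synapse scaffold, stood at 2.24 and 2.21 TPM in naive input, 6.78 and 4.34 in RS input, 5.21 and 5.1 in naive IP and 3.06 and 3.55 in RS IP. It was above input in naive IP and below input in RS IP, a difference of -1.52 ± 0.25 (adjusted p = 0.0223), lost with the pool as a block (adjusted p = 0.0602) and without any library but the RS inputs (adjusted p = 0.0662 to 0.0874). In RS input Lhfpl4 rose by 0.72 ± 0.10 (adjusted p = 0.00229), while Gabarap, a GABA-A receptor trafficking protein, fell by 0.40 ± 0.07 (adjusted p = 0.00579).

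Secreted cerebellins (Cbln1, Cbln2 and Cbln4) and C1q-like proteins (C1ql1, C1ql2 and C1ql3) were tested as a list of 6 genes. Of these 6, 3 were higher in naive IP and 3 in RS IP, and none was lower. After scaling all 6 were higher in both. Cbln4, a cerebellin, stood at 7.64 and 6.59 TPM in naive input, 8.32 and 7.77 in RS input, 23.2 and 20.1 in naive IP and 23.9 and 21.5 in RS IP, with changes of 1.48 ± 0.11 (adjusted p = 2.16e-05) and 1.39 ± 0.11 (adjusted p = 1.55e-05). Cbln2 was higher at 0.76 ± 0.09 (adjusted p = 0.000128) and 0.48 ± 0.09 (adjusted p = 0.00118), and the delta receptor Grid1 was not called in either (0.09 and -0.04), though it was called higher after scaling (0.38 and 0.34). Of 9 nicotinic receptor chaperones and modulators, 3 were higher and 3 lower in naive IP, and 4 and 3 in RS IP (6 and 1, and 7 and 2, after scaling). Ly6h, a membrane protein that limits nicotinic receptor trafficking, was higher in IP at 0.53 ± 0.05 (adjusted p = 5.66e-05) and 0.56 ± 0.05 (adjusted p = 2.57e-05). It fell with RS by 0.30 ± 0.05 in IP (adjusted p = 0.0259, lost without any library but the RS inputs, at 0.0609 to 0.151) and by 0.32 ± 0.05 in input (adjusted p = 0.00401). Ric3, a chaperone of nicotinic and 5-HT3 receptors, was lower in both (-0.67 ± 0.11 and -0.94 ± 0.11, adjusted p = 0.000893 and 0.000103), and in naive mice was not called after scaling (-0.31, adjusted p = 0.0524).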

How the data were processed

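RNA of pooled mouse septal tissue was sequenced before (input) and after (IP) immunoprecipitation with 4 µg of anti-pS6 antibody. Libraries were made with the SMARTer Ultralow kit. The authors deposited 1 value per gene symbol and library under an FPKM name, but each library summed to 1000000, so the deposited values were used as TPM. The submitters' processing notes name STAR and DESeq2 and the study's methods TopHat and Cufflinks, both on mm10, and the labels give killing 1 h after restraint where the methods name no interval; both name more replicates per group than the 2 analysed here. Depth per library is unknown, and no counts were recovered from these values.

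Of 24972 symbols, 26 turned into dates were left out, and genes at 1 TPM or more in at least 2 of 8 libraries were kept. limma 3.58.1 (R 4.3.3) was fitted to log2(TPM + 1) with 1 mean per group, a mean-variance trend and Benjamini-Hochberg adjustment over all genes kept, 2-sided; residual degrees of freedom were 4. A fold change on this scale understates the change of genes near 1 TPM. Alternatives were a pseudocount of 0.1, no filter, median-of-ratios scaling, a length and GC correction, no trend, only the 4 libraries compared, a replicate block and leaving out each library. Input and IP were made from the same pools. Those of the same number were taken as a pair, which the labels do not state. The 2 pools' differences nevertheless had r of -0.06 between naive input and IP and -0.05 between RS input and IP across genes. Naive and RS pools of the same number hold different mice. Values in each library are printed for the most abundant member of each family, for up to 6 called subunits per direction and comparison by size of change, and for every subunit called in RS against naive IP or in the difference of changes. List genes were named by the 3 lowest p per comparison. Subunits, lists and tests were chosen with earlier results of these data known. Gene positions and transcript lengths are from GENCODE on GRCm38 and promoter sequences from RefSeq. Length and GC content are those of the longest annotated protein-coding transcript, or of any type where a gene has none. That transcript need not be the form expressed here. Of the 42 subunits 39 are described by name, and values of the others are not reported here.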

Additional observations from a re-analysis of the deposited data

Results flagged for a closer look

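The IP against input change differed between RS and naive pools for Gria2 and Gabra4 by limma's test of the difference itself. The difference was -0.67 for Gria2 (adjusted p = 0.0134) and -0.54 for Gabra4 (adjusted p = 0.0499), and in both of them both RS pools had a lower change than both naive pools. The Gabra4 call was lost under each of 14 alternatives, the pool block among them (adjusted p = 0.087). The Gria2 call was lost without 6 of the 8 libraries, after the length and GC correction and without the mean-variance trend. For Gria2 the change was -0.22 and -0.30 in the naive pools and -0.98 and -0.88 in the RS pools. On the TPM scale, both naive pools moved one way and both RS pools the opposite way in 3 other subunits. The difference was not called in them. On that scale the median change of all genes was itself -0.32 in naive and -0.42 in RS mice. The share of all genes with this pattern was not counted. Grin1, the obligatory NMDA receptor subunit, was at 0.04 and 0.03 in naive pools and -0.26 and -0.17 in RS pools, a difference of -0.25 (adjusted p = 0.146). After median-of-ratios scaling Grin1 was called higher in both conditions. Grin3a was at 0.07 and 0.01 against -0.74 and -0.44, a difference of -0.63 (adjusted p = 0.0802). Chrne was at -0.31 and -0.68 against 0.53 and 0.25, a difference of 0.88. It passed the filter through naive input alone, the group whose high values set these directions, so it is given as a description.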

How the results depend on the processing

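The counts of subunits called in IP against input depended on the scale. In naive mice 4 were higher and 19 lower on the TPM scale, 10 and 6 after median-of-ratios scaling, and 13 and 5 after the length and GC correction. In RS mice 3 and 28 became 9 and 14, and 13 and 11. The shares of all genes called higher and lower moved as well, from 17.4% and 49.2% to 30.9% and 28.7% and to 25.2% and 30.7% in naive mice, and from 17.8% and 54.9% to 33.4% and 31.2% and to 26.8% and 32.5% in RS mice. The 3 lower calls of the difference became 1 with a pseudocount of 0.1, without the filter, after scaling or with the replicate block, and 0 after the length and GC correction or without the trend. The lower call of RS against naive IP (Glra2) became 0 without the filter, without the trend and with only the 4 libraries compared. The 9 higher calls in RS input became 3 after scaling and 2 after the length and GC correction, where the share of all genes called higher went from 20.3% to 7.92% and 6.4%. Leaving out 1 library at a time gave 3 to 4 higher and 11 to 20 lower calls in naive IP, 2 to 3 and 25 to 28 in RS IP, 0 to 2 lower in the difference, 0 to 1 lower in RS against naive IP, and 2 to 11 higher and 0 to 1 lower in RS input.

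After median-of-ratios scaling the naive IP change turned to 0.12 for Gria2, 0.17 for Gabra5 and 0.0941 for Gabra4, and the RS IP change to 0.0182 for Gabra5, 0.28 for Grin1 and 0.34 for Grid1. After the length and GC correction the naive change turned to 0.33 for Gria2, 0.0793 for Gabra5, 0.11 for Chrna4 and 0.15 for Gabra4, and the RS change to 0.42 for Grin1, 0.77 for Grid1, 0.0746 for Chrna4, 0.0687 for Grik3 and 0.57 for Grin2b. The cause of these turns was not tested. With the replicate block, 4 subunits were higher and 16 lower in naive IP, 3 and 28 in RS IP, and 8 and 1 in RS input, and in RS input the call of Gabrd was lost (adjusted p = 0.057), where the numbers do not pair mice. The depth of the libraries is unknown, and it sets the precision of subunits near 1 TPM.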
